A study of Mus musculus with 6 samples.

Results

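The 34 genes described here encode the machinery that collects ubiquitinated protein, encloses it in autophagosomes and degrades it in lysosomes. They were chosen by gene symbol, because HDAC6 carries ubiquitinated cargo to aggresomes, and all 34 were found among the 16022 genes of the deposited table. The RNA came from sorted LSK cells of mouse bone marrow, which lack lineage markers, carry c-kit and much Sca-1, and include the blood-forming stem cells and their first progeny. There were 3 HDAC6 knockout (KO) samples and 3 wild-type (WT) samples. The labels used here give no strain, age, sex or deleted exon, name no shared allele or treatment, and do not say whether animals were pooled or separate. The p-values therefore measure the spread between these samples, which may be technical.

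In this pathway, proteins marked with ubiquitin chains are bound by cargo receptors such as p62 and optineurin. HDAC6 itself binds ubiquitin and the dynein motor, and moves such cargo along microtubules to the aggresome near the centrosome. The ULK1 kinase and beclin 1 lipid kinase complexes start a membrane, a conjugation system attaches LC3 and GABARAP proteins to it, and the closed autophagosome fuses with a lysosome. TFEB and TFE3 are transcription factors that bind E-box elements in lysosomal gene promoters. In mice, deletion of Atg7 or Atg12 in the blood system is known to impair hematopoietic stem cells.

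Total counts ran from 27253024 to 28743694 in KO libraries and from 25993988 to 27371342 in WT libraries. Levels are given as CPM, the count relative to the library total, scaled by the trimmed mean of M values (TMM), as mean ± SD of 3 libraries where 1 value stands for a group. Hdac6 stood at 9.62, 7.69 and 11.3 CPM in KO replicates 1, 2 and 3, against 68.0, 58.2 and 54.3 CPM in WT replicates 1, 2 and 3. The groups did not overlap, and Hdac6 was the single gene of 12875 past a Benjamini-Hochberg adjusted p of 0.05 in edgeR's quasi-likelihood test (adjusted p = 0.000594), a share of 0.00777%. Over all genes KO replicate 3 lay nearer to the WT libraries, with a chi-square per degree of freedom between counts of 25.8 to 35.5, than to KO replicates 1 and 2, with 58.4 and 53.8. By the same measure WT libraries lay at 35.1 to 39.2 from each other, and KO replicates 1 and 2 at 45.8. The Hdac6 level of KO replicate 3 was that of a KO library. Without KO replicate 3 edgeR called 30 genes higher and 14 lower, none of them among the 34 genes. Gate markers were present, with Kit at 725 to 1082 CPM in KO and 1127 to 1367 CPM in WT, and Ly6a (Sca-1) at 82.1 to 119 CPM in KO and 60.3 to 68.7 CPM in WT. The groups did not overlap for either gene, with log2 fold changes of -0.54 for Kit and 0.71 for Ly6a (edgeR adjusted p = 0.298 for each). Of 8 listed markers of LSK cells, 2 were higher (25%, against 7.24% of all tested genes) and 3 lower (37.5%, against 6.15%) at an unadjusted p under 0.05. Of the lineage markers, Cd3e, Ms4a1 and Ly6g stayed under 0.6 CPM in every library, while Itgam (34.3 to 67.5 CPM in KO, 45.4 to 55.5 CPM in WT) and Nkg7 (256 to 312 CPM in KO, 260 to 311 CPM in WT) were detected. In such bulk samples, fewer cells of a type and less RNA per cell cannot be told apart.

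None of the 34 genes passed the test over all genes in either direction: edgeR called 0 higher and 0 lower, and the smallest adjusted p was 0.298. At an unadjusted p under 0.05, 5 of 34 were higher in KO (14.7%, against 7.24% of all tested genes) and 0 were lower (against 6.15%). They were Wipi2, Lamp1, Ctsz, Lamp2 and Optn. DESeq2 called 2 of the 34 higher, the lysosomal membrane gene Lamp1 and the autophagosome gene Wipi2, and 0 lower, where it called 0.897% of its tested genes higher and 0.456% lower. The 3 KO values all lay above the 3 WT values in 4 of 34 genes (11.8%, against 8.86% of all tested genes) and all below them in 2 (5.88%, against 9.7%). The median log2 fold change of the 34 genes was 0.105, against -0.0034 for all tested genes, and 24 of 34 lay above 0 (70.6%, against 49.5% of all tested genes). With library size alone as scaling 18 of 34 lay above 0 (52.9%, against 39.7% of all tested genes), and the medians were 0.03 and -0.08.

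**Figure D1:**
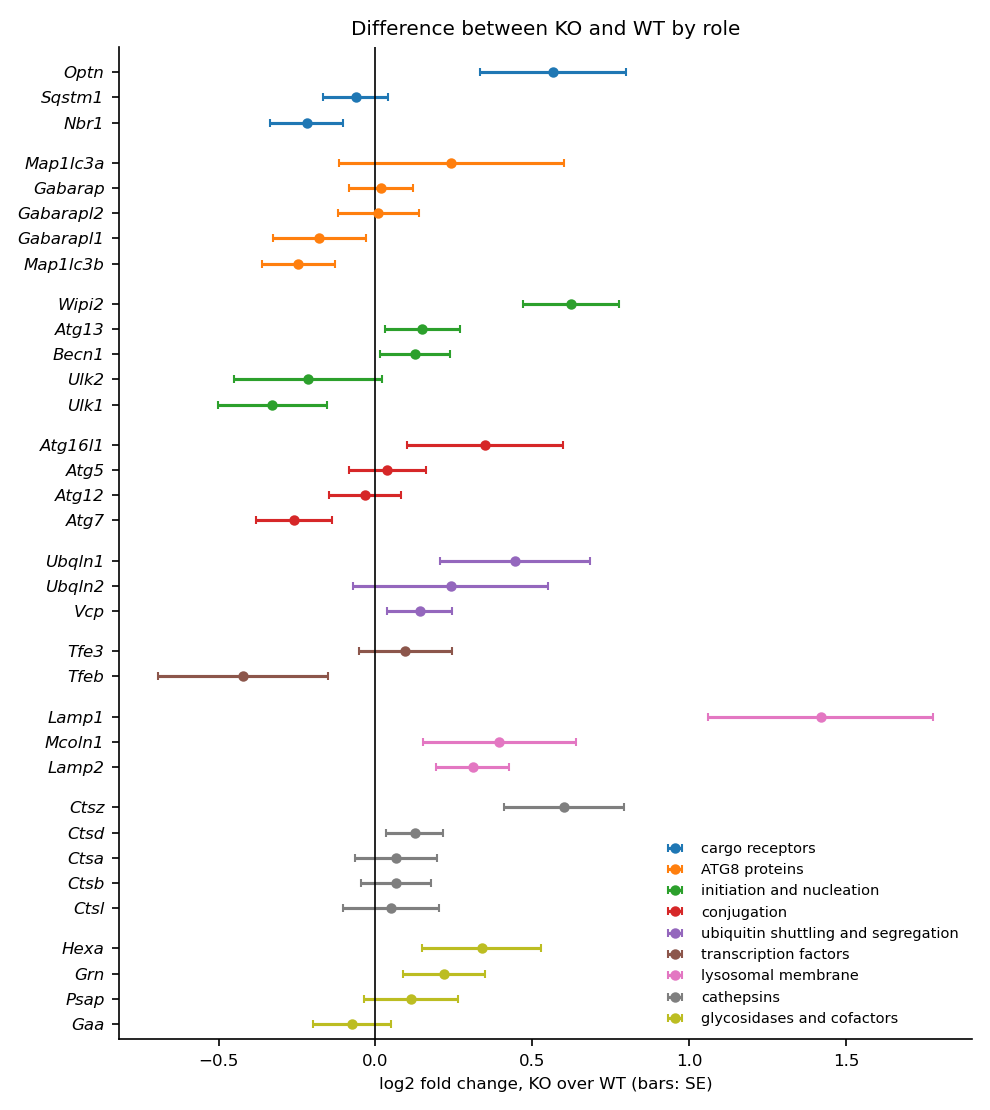
Log2 fold change of each of the 34 genes (x axis, KO over WT, bars give the standard error of the edgeR fit), grouped and coloured by role. Lamp1 at 1.42 stands farthest from 0, and genes of the autophagosome roles lie on both sides of 0.

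The cargo receptors lay on different sides of WT. Sqstm1, which encodes p62, the receptor that also gathers ubiquitinated protein into bodies, measured 247, 248 and 294 CPM in KO replicates 1, 2 and 3, against 277, 282 and 264 CPM in WT replicates 1, 2 and 3. The groups overlapped, and the log2 fold change was -0.06 (SE 0.10, adjusted p = 0.812 by edgeR). Nbr1, a receptor related to p62 in its domains, had 106.7, 116.7 and 120.6 CPM in KO, against 127, 149.5 and 123 CPM in WT. Every KO library lay below every WT library, though the gap between KO replicate 3 and WT replicate 3 was small next to the range within WT (log2 fold change -0.22, SE 0.12, edgeR adjusted p = 0.428). Without WT replicate 2 the log2 fold change of Nbr1 was -0.13. Optn, which encodes optineurin, a receptor of ubiquitinated mitochondria, bacteria and aggregates, had 23.2, 42.1 and 34.9 CPM in KO, against 25.6, 18.0 and 24.1 CPM in WT. KO replicate 1 lay within the WT range and the other two lay above it (log2 fold change 0.57, SE 0.23, edgeR adjusted p = 0.347). Without KO replicate 2 the log2 fold change of Optn was 0.37.

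Genes that extract or shuttle ubiquitinated protein had positive log2 fold changes in 3 of 3 cases, none past the test. Vcp encodes the ATPase that pulls ubiquitinated proteins out of complexes and that binds HDAC6. It measured 1212, 1106 and 958 CPM in KO replicates 1, 2 and 3, against 979, 969 and 1024 CPM in WT. KO replicate 3 was the lowest of the 6 libraries, so the groups overlapped (log2 fold change 0.14, SE 0.10, edgeR adjusted p = 0.562). Without KO replicate 3 the log2 fold change of Vcp was 0.23, and without KO replicate 1 it was 0.061. Ubqln1, an adaptor that brings ubiquitinated proteins to the proteasome, averaged 67.1 ± 15.3 CPM in KO and 49.2 ± 15.1 CPM in WT (SD, n = 3 each), and its log2 fold change of 0.45 was 0.23 without WT replicate 2. Its paralog Ubqln2 averaged 6.42 ± 0.580 CPM in KO and 5.44 ± 1.73 CPM in WT. The sources used here do not say how reads shared between such paralogs were counted.

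Autophagy is started by the ULK1 and beclin 1 complexes, and the 5 genes of this step differed among themselves. Wipi2, which binds the lipid made by the beclin 1 complex and recruits the conjugation machinery, had 130.4, 139 and 139 CPM in KO replicates 1, 2 and 3, against 98.3, 66.7 and 99.6 CPM in WT. The KO libraries lay within a narrow range above all WT libraries, and WT replicate 2 stood below the other WT libraries. The log2 fold change was 0.62 (SE 0.15), the smallest unadjusted p among the 34 genes (0.00227), with an edgeR adjusted p of 0.298 and a DESeq2 adjusted p of 0.0259. Over all settings tried, the adjusted p of Wipi2 ran from 0.0259 to 0.744, and without WT replicate 2 its log2 fold change was 0.46. Ulk1, the kinase that nutrient signals hold in check, had 30.7, 44.1 and 35.5 CPM in KO, against 39.3, 51.6 and 47.7 CPM in WT. KO replicate 2 lay within the WT range and the other KO libraries lay below it (log2 fold change -0.33, SE 0.17, edgeR adjusted p = 0.421), and without KO replicate 1 the log2 fold change of Ulk1 was -0.21. Its relative Ulk2 averaged 11.9 ± 2.73 CPM in KO and 13.9 ± 1.90 CPM in WT. Atg13, which anchors the ULK1 complex, averaged 97.7 ± 4.87 CPM in KO and 88.0 ± 9.18 CPM in WT. Becn1, the beclin 1 gene, averaged 243 ± 14.6 CPM in KO and 222 ± 23.8 CPM in WT. These 3 genes had overlapping groups.

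The log2 fold changes of the 4 conjugation genes and of the 5 ATG8 genes, whose products they attach to membranes, lay between -0.26 and 0.35, and none passed the test. Atg7, the E1-like enzyme of both conjugation reactions, had 73.5, 65.3 and 64.0 CPM in KO replicates 1, 2 and 3, against 87.9, 76.6 and 78.1 CPM in WT. Each KO library lay below each WT library, with a log2 fold change of -0.26 (SE 0.12, edgeR adjusted p = 0.379). Atg12 and Atg5, which form the conjugate that acts like an E3, had log2 fold changes of -0.03 (SE 0.11) and 0.04 (SE 0.12). Atg16l1, which places that conjugate on the membrane where WIPI2 is bound, averaged 46.9 ± 7.43 CPM in KO and 36.9 ± 14.6 CPM in WT, where WT replicate 3 at 53.4 CPM was the second highest of the 6 libraries. Without WT replicate 3 the log2 fold change of Atg16l1 was 0.72, and without WT replicate 1 it was 0.15, against 0.35 with all libraries. Among the ATG8 genes, Map1lc3b, the LC3 gene most used as an autophagosome marker, had 369, 346 and 404 CPM in KO, against 493, 452 and 382 CPM in WT. The groups overlapped through WT replicate 3 (log2 fold change -0.25, SE 0.12, edgeR adjusted p = 0.382), and without WT replicate 1 the log2 fold change was -0.16. Gabarapl1 averaged 183 ± 32.9 CPM in KO and 207 ± 26.6 CPM in WT, and the log2 fold changes of Gabarap, Gabarapl2 and Map1lc3a were 0.02 (SE 0.10), 0.01 (SE 0.13) and 0.24 (SE 0.36). The signs for Gabarap, Gabarapl2 and Atg5 turned with library size alone as scaling.

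**Figure D2:**
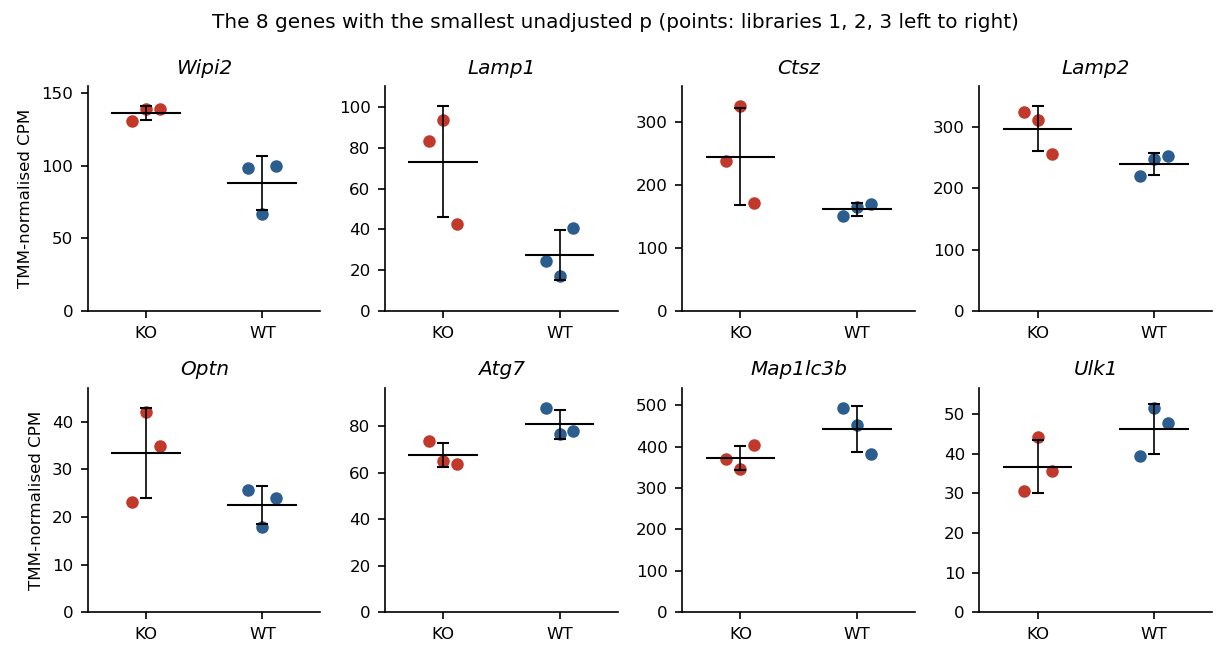
TMM-normalised CPM (y axes, starting at 0) in each KO and WT library for the 8 genes of smallest unadjusted p, with the group mean (line) and SD (bar) of 3 libraries. KO and WT points are apart for Wipi2, Lamp1, Ctsz, Lamp2 and Atg7, and for Lamp1 the 42.5 CPM of KO replicate 3 lies next to the 40.7 CPM of WT replicate 3.

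The lysosomal membrane genes were higher in KO by mean in 3 of 3 cases, none past the edgeR test. Lamp1, which encodes a heavily glycosylated protein that lines the lysosome and reaches the cell surface when lysosomes or granules fuse with it, had 83.6, 93.6 and 42.5 CPM in KO replicates 1, 2 and 3, against 24.3, 17.2 and 40.7 CPM in WT. KO replicates 1 and 2 lay well above every WT library, whereas KO replicate 3 differed from WT replicate 3 by less than the spread within either group. The log2 fold change was 1.42 (SE 0.36), the largest of the 34 genes, with an edgeR adjusted p of 0.298 and a DESeq2 adjusted p of 0.00236. Without KO replicate 3 it was 1.70 (edgeR adjusted p = 0.0537), without WT replicate 2 it was 1.17, and the adjusted p over all settings ran from 0.00236 to 0.744. Lamp2, whose products line the lysosome and serve its fusion with autophagosomes, had 325, 311 and 257 CPM in KO, against 220.2, 247 and 252 CPM in WT. The groups did not overlap, with KO replicate 3 again nearest to WT (log2 fold change 0.31, SE 0.12, edgeR adjusted p = 0.329). Mcoln1, the calcium channel of the lysosome that activates TFEB through calcineurin, averaged 36.5 ± 3.53 CPM in KO and 27.7 ± 9.62 CPM in WT, with WT replicate 2 at 17.0 CPM below the rest. The log2 fold change of Mcoln1 was 0.40 (SE 0.24), and 0.14 without WT replicate 2.

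Of the transcription factors of this programme, Tfeb was low in both groups. It had 5.69, 6.53 and 6.64 CPM in KO replicates 1, 2 and 3, against 9.23, 6.22 and 9.80 CPM in WT. WT replicate 2 lay within the KO range, and the other WT libraries lay above it (log2 fold change -0.42, SE 0.27, edgeR adjusted p = 0.511). Tfe3 had 42.6, 42.8 and 47.3 CPM in KO, against 34.6, 44.2 and 45.3 CPM in WT. The groups overlapped (log2 fold change 0.10, SE 0.15, edgeR adjusted p = 0.790). The activity of both proteins is set largely by their entry into the nucleus, which mRNA levels do not measure.

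TFEB and TFE3 bind a motif of 10 bases named CLEAR, built around the E-box core CACGTG, so the promoters of the genes were searched for it. RefSeq promoter windows of build GRCm38.p6, from 250 bases before the start to 50 after it, were held for 28 of the 34 genes (34 windows), and both strands were read. The windows describe that build, while the submitters' processing notes name GRCm39 for the reads. The full CLEAR consensus was in 0 of the 34 windows, against 0.326% of all 32851 windows and 0.644% of the 13209 windows of tested genes. The 9 bases TCACGTGAC, which lie within it, were in those of Ctsa, Ctsd and Mcoln1, against 0.782% of all windows and 1.53% of those of tested genes. The core CACGTG was in 8 windows, of Atg5, Atg7, Ctsa, Ctsd, Ctsl, Gaa, Lamp1 and Mcoln1, against 7.15% of all windows and 9.76% of those of tested genes. The Lamp1 window held 4 copies, whose first bases lie at -61, -45, -28 and -15 from the start, and 0.0244% of all windows held 4 or more. The 250 bases before the start are shown for Lamp1, for Mcoln1 and Ctsd with the longer match, and for Wipi2, the gene with the smallest p, whose window had no match. Capitals mark CACGTG and the TCACGTGAC matches that contain it.
Lamp1, chr8:13158911-13159160 on the plus strand: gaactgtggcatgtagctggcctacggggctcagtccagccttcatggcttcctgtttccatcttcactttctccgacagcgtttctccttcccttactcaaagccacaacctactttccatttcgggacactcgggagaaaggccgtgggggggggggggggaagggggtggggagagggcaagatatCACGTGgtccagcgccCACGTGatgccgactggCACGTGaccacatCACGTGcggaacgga
Mcoln1, chr8:3500269-3500518 on the plus strand: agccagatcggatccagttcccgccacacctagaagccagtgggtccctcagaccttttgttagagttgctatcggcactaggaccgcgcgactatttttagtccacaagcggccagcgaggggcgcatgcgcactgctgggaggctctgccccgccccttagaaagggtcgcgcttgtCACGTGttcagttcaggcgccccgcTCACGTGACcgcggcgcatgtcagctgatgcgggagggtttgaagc
Ctsd, chr7:142387828-142388077 on the minus strand: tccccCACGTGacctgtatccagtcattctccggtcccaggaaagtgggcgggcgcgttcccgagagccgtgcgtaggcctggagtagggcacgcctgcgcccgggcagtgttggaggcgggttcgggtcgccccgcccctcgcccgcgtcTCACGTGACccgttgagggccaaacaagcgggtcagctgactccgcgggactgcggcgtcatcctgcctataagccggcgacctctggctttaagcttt
Wipi2, chr5:142629334-142629583 on the plus strand: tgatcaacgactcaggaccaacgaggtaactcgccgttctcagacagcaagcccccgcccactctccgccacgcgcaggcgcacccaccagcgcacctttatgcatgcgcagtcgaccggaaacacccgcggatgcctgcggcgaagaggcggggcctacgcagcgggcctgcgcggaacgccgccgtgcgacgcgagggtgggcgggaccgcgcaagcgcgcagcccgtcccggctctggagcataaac
A match describes these letters and not binding. The log2 fold changes of the 8 genes with CACGTG were 1.42 for Lamp1, 0.40 for Mcoln1, 0.13 for Ctsd, 0.07 for Ctsa, 0.05 for Ctsl, 0.04 for Atg5, -0.07 for Gaa and -0.26 for Atg7. The 3 genes with the 9-base match were thus between 0.07 and 0.40, within the range of the rest, and the 0.40 of Mcoln1 was 0.14 without WT replicate 2.

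The cathepsins, the proteases of the lysosome, had positive log2 fold changes in 5 of 5 genes, of which Ctsz alone had an unadjusted p under 0.05. Ctsz, a cysteine carboxypeptidase, had 239, 325 and 172 CPM in KO replicates 1, 2 and 3, against 150.3, 165 and 170.0 CPM in WT. The groups were apart, but KO replicate 3 and WT replicate 3 were nearly level (log2 fold change 0.60, SE 0.19, edgeR adjusted p = 0.307). Without KO replicate 2 the log2 fold change of Ctsz was 0.35, and without KO replicate 3 it was 0.80 (edgeR adjusted p = 0.0527). The main aspartic protease gene Ctsd averaged 519 ± 25.0 CPM in KO and 475 ± 19.4 CPM in WT. The cysteine protease genes Ctsb and Ctsl averaged 382 ± 46.5 and 31.5 ± 2.48 CPM in KO, and 365 ± 22.1 and 30.4 ± 3.10 CPM in WT. Ctsa, the protective protein of lysosomal neuraminidase, averaged 224 ± 39.1 CPM in KO and 214 ± 5.74 CPM in WT. With library size alone as scaling the signs for Ctsa, Ctsb and Ctsl turned, and without KO replicate 2 those for Ctsa and Ctsb did.

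Among the glycosidases and cofactors, Hexa, the alpha subunit of beta-hexosaminidase, had 223, 362 and 207 CPM in KO replicates 1, 2 and 3, against 194, 212 and 220.5 CPM in WT. KO replicate 2 stood far above the other 5 libraries, and the log2 fold change of 0.34 (SE 0.19, edgeR adjusted p = 0.447) was 0.04 without it. Grn, which encodes progranulin, a precursor cut into lysosomal peptides, averaged 256 ± 36.0 CPM in KO and 220.2 ± 23.6 CPM in WT, and its log2 fold change of 0.22 was 0.12 without KO replicate 2. Psap, the precursor of the saposins that present lipids to hydrolases, averaged 153 ± 29.1 CPM in KO and 141 ± 16.1 CPM in WT. Gaa, the acid glucosidase that breaks down glycogen, averaged 182 ± 13.8 CPM in KO and 192 ± 27.6 CPM in WT.

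By library, KO replicate 2 was the highest of the 6 libraries in 8 of the 12 lysosomal genes, and its median over them was 0.38 log2 units above the WT mean. The medians of KO replicates 1 and 3 were 0.10 and 0.08, those of WT replicates 1, 2 and 3 were -0.10, 0.03 and 0.07. The matching values over all tested genes are not given here, so these cannot be called particular to the lysosomal genes. The median log2 fold change of the 12 was 0.17 with 11 above 0 (91.7%, against 49.5% of all tested genes). Without KO replicate 2 it was 0.09 with 8 above 0 (against 49.6% of all tested genes). With library size alone it was 0.098 (-0.078 for all tested genes), and with limma on log2(FPKM + 1) 0.097 (-0.052 for all tested genes). Each put 8 of 12 above 0, where 39.7% and 40.7% of all tested genes lay above 0. Without KO replicate 3 the median of the 12 was 0.20 with 10 above 0. For the 22 genes of the other roles the median was 0.03 (-0.05 with library size alone as scaling, against -0.078 for all tested genes). KO replicate 2 was the highest library in 3 of 22. In the same library, 7 granule genes of myeloid progenitors (Mpo, Elane, Prtn3, Ctsg, Ms4a3, Cst7 and Serpinb1a) summed to 17650 CPM, against 6024 to 7218 CPM in the other KO libraries and 5435 to 8082 CPM in WT libraries, most of it Mpo. The granule genes also lay higher over the groups: 6 of 7 were above 0 (85.7%, against 49.5% of all tested genes) with a median of 0.89. At an unadjusted p under 0.05, 3 of 7 were higher (42.9%, against 7.24% of all tested genes). KO replicate 1 exceeded every WT library too for Prtn3 (486 CPM, against 215 to 317 CPM in WT), Ctsg (402 CPM, against 184 to 301 CPM in WT), Ms4a3 and Cst7. It lay within the WT range for Mpo (5438 CPM, against 4277 to 6581 CPM in WT), Elane and Serpinb1a. The 16 listed macrophage and monocyte genes summed to 491, 939 and 916 CPM in KO replicates 1, 2 and 3, against 599 to 774 CPM in WT. By these sums KO replicates 2 and 3 were both above WT, and their highest genes differed. Ccr2 stood at 391.7 CPM in KO replicate 3, against 55.67 and 146 CPM in KO replicates 1 and 2. In WT it stood at 29.87 to 205 CPM, and the sums without Ccr2 were not compared. Lyz2 stood at 220 to 329.9 CPM in KO and 331.6 to 355.9 CPM in WT. Of 15 tested genes of this list, 9 lay above 0 (60%, against 49.5% of all tested genes). At an unadjusted p under 0.05, 0 were higher and 0 lower (against 7.24% and 6.15%). Among them Csf1r stood at 208 CPM in KO replicate 2, against 56.0 to 70.3 CPM in the other KO libraries and 35.4 to 73.7 CPM in WT, while the resident macrophage gene C1qa stood at 3.84 to 10.8 CPM in KO and 6.85 to 11.7 CPM in WT. Marco was at 0 in 2 KO and 2 WT libraries. Of 11 tested natural killer and T cell markers, 10 lay above 0 (90.9%, against 49.5% of all tested genes), with a median log2 fold change of 2.25. At an unadjusted p under 0.05, 7 of 11 were higher (63.6%, against 7.24%). The 15 listed summed to 285 to 408 CPM in KO and 277 to 334 CPM in WT, most of it Nkg7. Cd3e among them was at 0 in all 3 KO libraries and in 2 of 3 WT libraries. Of 9 tested neutrophil granule markers, 7 lay below 0 and 2 above it (22.2%, against 49.5% of all tested genes), with a median log2 fold change of -1.19. At an unadjusted p under 0.05, 5 of 9 were lower (55.6%, against 6.15%) and 0 higher. The 10 listed summed to 18.5 to 37.3 CPM in KO and 43.2 to 110.0 CPM in WT. The part of these cell types in the lysosomal values was not tested.

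**Figure D3:**
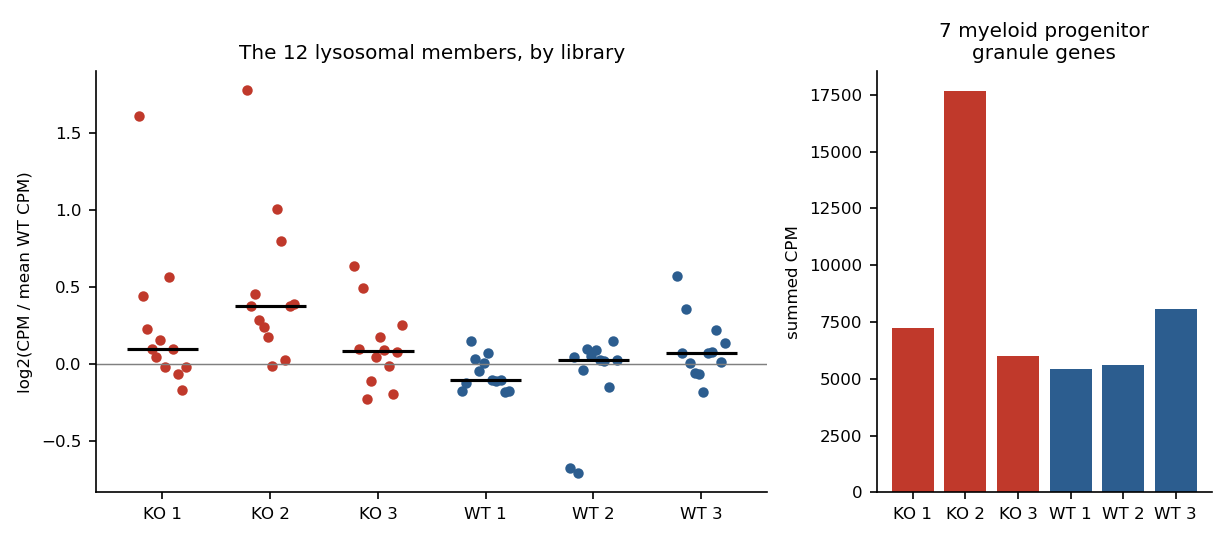
Left, log2 ratio of CPM to the WT mean (y axis) for the 12 lysosomal genes in each library, with the library median as a black line. Right, summed CPM of 7 myeloid progenitor granule genes in the same libraries, where KO replicate 2 at 17650 CPM stands above the other 5.

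Per length, as the deposited FPKM (fragments per kilobase of transcript, scaled to library size), the 34 genes spanned more than 2 orders of magnitude in these cells. Vcp had the highest level, with 343 ± 29.9 FPKM in KO and 328 ± 5.95 FPKM in WT, followed by Ctsd with 297 ± 6.39 FPKM in KO and 287 ± 15.7 FPKM in WT. Ulk2 and Ubqln2 had the lowest, with 2.09 ± 0.547 and 2.01 ± 0.135 FPKM in KO, and 2.54 ± 0.359 and 1.79 ± 0.547 FPKM in WT. In WT 13 genes exceeded 100 FPKM, among them 4 of the 5 ATG8 genes and Sqstm1, and 5 were under 10 FPKM. The median over the genes was 38.5 FPKM in WT, against 11.4 FPKM for all tested genes. In the WT order, 8 of the 33 pairs of neighbours did not overlap, such as Vcp and Ctsd or Lamp2 and Psap, and the remaining 25 could not be ordered beyond the spread of 3 libraries. Paralogs could be far apart. Map1lc3b at 163 ± 17.5 FPKM in KO and 203 ± 27.4 FPKM in WT exceeded Map1lc3a at 7.42 ± 0.881 FPKM in KO and 6.56 ± 2.65 FPKM in WT. Lamp2 at 99.8 ± 9.03 FPKM in KO and 83.0 ± 4.93 FPKM in WT exceeded Lamp1 at 35.2 ± 12.3 FPKM in KO and 13.9 ± 5.94 FPKM in WT. Lamp1 was 18th of 34 by level in KO and 27th in WT.

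**Figure D4:**
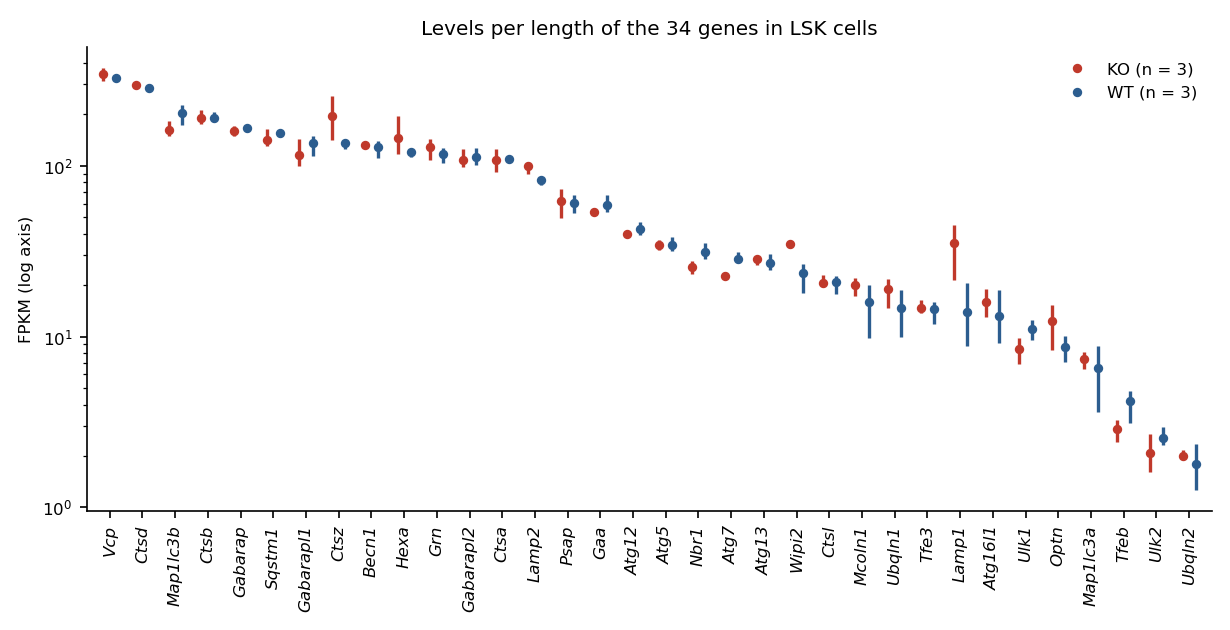
Deposited FPKM (y axis, log scale) of the 34 genes in order of their WT mean, with points for the mean and lines for the lowest and highest of 3 libraries in KO and WT. The ranges of KO and WT overlap for most genes, and those of Lamp1, Wipi2 and Lamp2 are among those that do not.

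The wider pathway was described through 161 other tested genes in 5 lists, none of which edgeR called. At an unadjusted p under 0.05, 9 were higher (5.59%, against 7.24% of all tested genes) and 12 lower (7.45%, against 6.15%), shares near those over all genes. The 3 KO values all lay above the 3 WT values in 13 genes (8.07%, against 8.86%) and all below them in 22 (13.7%, against 9.7%). Of 31 further core autophagy genes, 18 were above 0 with a median log2 fold change of 0.03, led by p by Atg2b, which transfers lipid into the growing membrane, and Atg4c, a protease that processes ATG8 proteins. Atg2b measured 45.1, 55.0 and 50.8 CPM in KO, against 34.6, 36.1 and 33.1 CPM in WT (log2 fold change 0.54, SE 0.14, edgeR adjusted p = 0.298). The groups did not overlap, and DESeq2 called it higher (adjusted p = 0.0379). Atg4c averaged 33.3 ± 1.55 CPM in KO and 43.8 ± 3.06 CPM in WT, also without overlap. Of 23 genes of selective autophagy and the aggresome, 9 were above 0 with a median of -0.06. They were led by Bnip3, a receptor for mitochondria, with 44.1 ± 5.56 CPM in KO and 57.4 ± 6.66 CPM in WT, and by Dync1h1, the heavy chain of the dynein motor that carries HDAC6 and its cargo. Dync1h1 had 131, 134 and 138 CPM in KO, against 149, 158 and 173 CPM in WT, without overlap (log2 fold change -0.26, SE 0.10, edgeR adjusted p = 0.345).

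Of 39 tested lysosomal hydrolases and cofactors beyond the 34 genes, 22 were above 0 with a median log2 fold change of 0.08. Sumf1, which activates sulfatases, had 33.5, 31.2 and 13.5 CPM in KO replicates 1, 2 and 3, against 15.9, 5.62 and 13.9 CPM in WT. As for Lamp1, KO replicate 3 lay near WT and WT replicate 2 was lowest. Ctss, a cathepsin of antigen presenting cells, had 59.9, 113 and 61.3 CPM in KO, against 47.3, 56.7 and 47.4 CPM in WT, with KO replicate 2 apart from the rest (log2 fold change 0.63, and 0.26 without that library). Of 33 further membrane and proton pump genes, 12 were above 0 with a median of -0.04. All KO values lay above all WT values in 4 of them (12.1%, against 8.86% of all tested genes) and below in 7 (21.2%, against 9.7%). Scarb2, the membrane protein that brings glucocerebrosidase to lysosomes, had 37.0, 41.0 and 35.9 CPM in KO, against 26.4, 27.5 and 27.1 CPM in WT. These groups were well apart (log2 fold change 0.49, SE 0.14, edgeR adjusted p = 0.298). Cln3, a lysosomal membrane protein lost in Batten disease in humans, lay the other way, at 38.1 ± 4.84 CPM in KO and 51.7 ± 3.92 CPM in WT. Of the 12 lysosomal genes above, 11 lay above 0 (8 with library size alone, where 39.7% of all tested genes did). The 72 other lysosomal genes were split 34 above and 38 below 0. The difference between these lists was not tested.

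Among 35 tested genes that pass nutrient signals to TFEB and ULK1, 14 were above 0 with a median log2 fold change of -0.02. Sesn1, which encodes sestrin 1, a stress-induced inhibitor of mTORC1, had 139, 140.3 and 174 CPM in KO replicates 1, 2 and 3, against 269, 241 and 186 CPM in WT. The groups did not overlap (log2 fold change -0.62, SE 0.15, edgeR adjusted p = 0.298), and DESeq2 called it lower (adjusted p = 0.0247). Mycbp2, a ubiquitin ligase known to act on the TSC complex, averaged 80.5 ± 8.08 CPM in KO and 108 ± 16.1 CPM in WT.

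**Figure D5:**
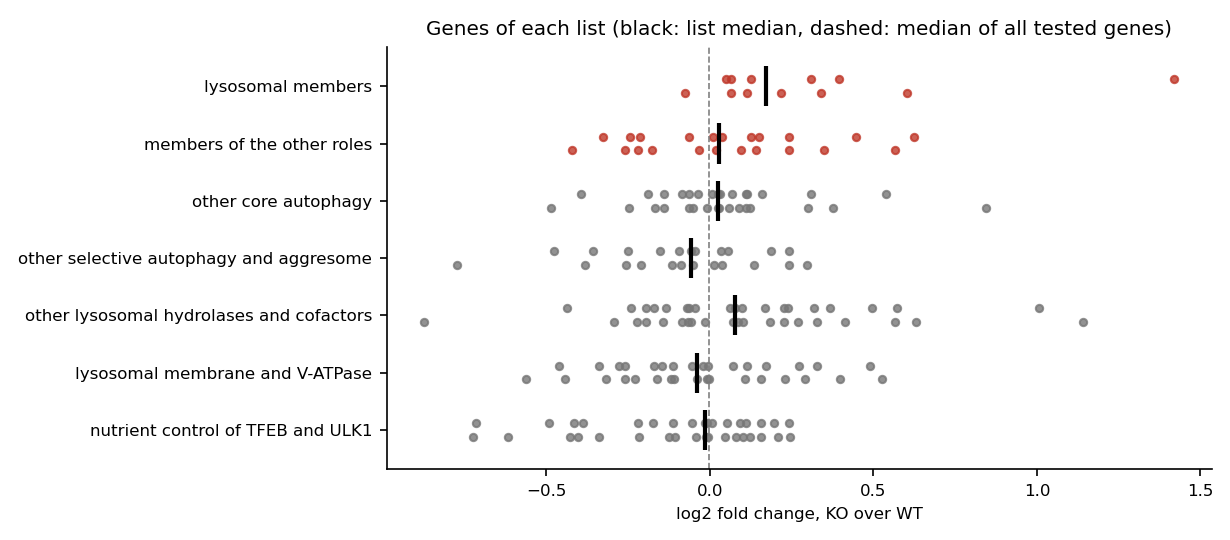
Log2 fold change (x axis, KO over WT) of each tested gene of the 34 genes, split into 12 lysosomal genes and 22 others, and of 5 wider lists, with the median of each as a black line. The median of the lysosomal genes is 0.17 and those of the wider lists lie between -0.06 and 0.08.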

How the data were processed

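Trizol served for RNA extraction from the 6 samples, per the labels' protocols. Build GRCm39 and the tools featureCounts 2.0.3, HISAT2 2.2.1, DESeq2 and SAMtools 1.13 stand in the submitters' processing notes, which give them no role. The sources used here do not give the strand setting or how shared reads were treated, so overlapping and antisense transcripts cannot be told apart. Each gene has 2 values a library, the authors' estimated count and their FPKM, per the file headers. In each library 19.6% to 20.9% of estimated counts had decimals, among them counts of 9 of the 34 genes, and all were rounded. Counting error alone puts the limit of a count of 0 (3 counts) at 0.106 to 0.114 CPM.

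KO was compared with WT over all 12875 genes that passed filterByExpr (default minimum count of 10), by edgeR 4.0.16 in R 4.3.3 (TMM factors 0.952 to 1.034, robust glmQLFit, glmQLFTest) with Benjamini-Hochberg adjustment, and all 34 genes passed the filter. The standard error is the log2 fold change over the root of F. The 34 genes and the other lists were chosen with earlier results of these data known. Values in every library are given for Hdac6, the 8 genes of smallest p, the cargo receptors, Vcp, Tfeb and Tfe3, and 2 genes of smallest p are named per wider list. Csf1r, Ccr2, Lyz2, C1qa and Marco, and Hexa's values in every library, were picked after their values were seen. Alternatives were RLE, no filter, a filter of 5 CPM in 3 libraries, DESeq2 1.42.0, limma 3.58.1 (voom with sample weights, and log2(FPKM + 1)), the replicate number as a block and each library left out. Library size alone was added after seeing the data. Promoter windows came from RefSeq on GRCm38.p6. No coordinates from the counts are given.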

Additional observations from a re-analysis of the deposited data

How the results depend on the processing

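Under 13 of 14 alternatives edgeR or limma called 0 of the 34 genes, and DESeq2 called 2 higher, Lamp1 and Wipi2. Over all genes DESeq2 called 120 higher and 61 lower, against 0 and 1 by edgeR, and with each library left out edgeR called 0 to 30 higher and 1 to 14 lower, most without KO replicate 3. The median log2 fold change of the 34 genes was 0.032 with library size alone, 0.030 with limma on log2(FPKM + 1), and 0.064 to 0.147 with each library left out. Both scalings put 18 of the 34 genes above 0, and 39.7% and 40.7% of all genes, against 49.5% with TMM. The median log2 fold change of all tested genes was -0.078 with library size alone and -0.052 with limma on log2(FPKM + 1), against -0.0034 with TMM. Signs near 0 turned. With library size alone the log2 fold change was -0.054 for Gabarap, -0.062 for Gabarapl2, -0.038 for Atg5, -0.013 for Ctsa, -0.013 for Ctsb and -0.023 for Ctsl. With limma on log2(FPKM + 1) it was -0.049 for Gabarap, -0.059 for Gabarapl2, -0.0044 for Atg5, -0.021 for Ctsa, -0.0099 for Ctsb and -0.0011 for Ctsl. With limma-voom it was -0.0066 for Gabarap and -0.048 for Gabarapl2, and with the stricter filter -0.00054 for Gabarapl2. With each library left out the range was -0.058 to 0.50 for Map1lc3a, -0.016 to 0.071 for Gabarap, -0.083 to 0.094 for Gabarapl2, -0.019 to 0.12 for Atg5, -0.073 to 0.039 for Atg12, -0.016 to 0.17 for Tfe3, -0.054 to 0.19 for Ctsa, -0.030 to 0.15 for Ctsb, -0.026 to 0.10 for Ctsl, -0.14 to 0.057 for Gaa and -0.038 to 0.24 for Psap. The cause was not tested. In the wider lists DESeq2 values are given only for the 2 genes of smallest edgeR p per list. Among those named genes DESeq2 moved Atg2b past the threshold as higher and Sesn1 as lower. Over all its tested genes it called 0.897% higher and 0.456% lower. As the named genes were picked by p in the same data, no share of the wider lists follows. The labels do not say whether equal replicate numbers pair the samples. Deviations of same-numbered libraries correlated at 0.03, -0.04 and -0.12 over genes, and those of differently numbered libraries at -0.07 to 0.11. These values cannot show whether samples were prepared in pairs. With the replicate block the median was 0.104 with 0 calls among the 34 genes.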

Other observations

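Tfe3 lies on the X chromosome near the deleted gene, with 9 protein-coding genes between it and Hdac6 in the RefSeq gene order of GRCm38.p6. Of these 9 genes 7 were tested, and edgeR called 0 of them, against 0.00777% of all tested genes. Their log2 fold changes ran from -0.60 (Kcnd1) to 0.67 (Pim2), with a median of 0.0019. Pim2, a survival kinase of blood cells, had 124, 84.5 and 77.7 CPM in KO replicates 1, 2 and 3, against 61.0, 53.1 and 65.4 CPM in WT. The groups did not overlap, at an edgeR unadjusted p of 0.00369 and adjusted p of 0.298. All KO values lay above all WT values in 8.86% of all tested genes. The other X-linked genes of the 34, Lamp2 and Ubqln2, lie 213 and 818 coding genes away.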
